A study of Mus musculus with 6 samples.

Results

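Accessible regions annotated to genes for long non-coding RNAs (lncRNAs) were examined in muscle stem cells (MuSCs), the resident stem cells of skeletal muscle. The deposited peak table holds 75412 regions, of which 35279 carry a gene within about 10 kb and its biotype and 40133 carry none. The exact string lncRNA matched 0 peaks, because the table uses older subtype names. Members were therefore the 5333 peaks (7.07% of all) whose gene carries 1 of the 8 subtypes that GENCODE vM21 groups as long non-coding, and they belong to 3019 genes. Most were annotated to lincRNA genes (3133 peaks) or antisense genes (1608 peaks), followed by processed_transcript (358), sense_intronic (218), sense_overlapping (9), bidirectional_promoter_lncRNA (4), 3prime_overlapping_ncRNA (2) and macro_lncRNA (1). Peaks of genes still to be experimentally verified (TEC) were not counted as members.

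Open chromatin was profiled by ATAC-seq, which relies on the Tn5 transposase to insert adapters where DNA is accessible. MuSCs were taken fresh from Taf4a sKO mice and from controls, and 3 libraries were made per genotype. Taf4a sKO animals were adult Pax7CreERT/Taf4a flox/flox mice on a C57BL/6 background that had received tamoxifen, so that exons 11 and 12 of Taf4a, flanked by loxP sites, are lost in cells that express Pax7. TAF4A is a subunit of the general transcription factor TFIID. The labels title the controls WT and give their genotype as control and their strain as C57BL/6. Per the study's methods, controls were littermates homozygous for floxed Taf4a, either with or without the Pax7 Cre allele. The strain list names tamoxifen only for Taf4a sKO animals. The description of the injections does not limit it by genotype, and a legend on body weight names it for control mice as well. Which kind of control gave the ATAC-seq libraries is not stated. Cells were sorted from digested limb and trunk muscle by the absence of SCA1, CD45 and CD31 and the presence of integrin alpha 7, or by a Pax7 reporter. By the study's own reanalysis the sorted cells were enriched for MuSCs but not pure. The labels do not state whether animals were pooled. The deposited values are read counts per peak, scaled by the authors for sequencing depth and rounded. They summed over all peaks to 37722015, 35226223 and 42803315 for the 3 control replicates, and to 44311913, 41661725 and 41948821 for the 3 replicates of Taf4a sKO.

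The targeted gene, listed under the symbol Taf4, was read first. The peak at chr2:179922849-179923263 overlaps exon 12 and had values of 65, 78 and 137 in control and of 44, 22 and 25 in Taf4a sKO libraries. The genotypes did not overlap, with a log2 fold change of -1.58 (SE 0.30, adjusted p = 3.4e-04 from limma). Outside the deleted part, a Taf4 peak over exon 7 was also lower, at 253, 249 and 302 against 140, 145 and 165 (log2 fold change -0.83, SE 0.15, adjusted p = 1.4e-04 from limma). So was a peak at chr2:179916955-179917641 (log2 fold change -0.49, adjusted p = 0.027 from limma), whereas the start-site peak did not pass (log2 fold change -0.07, adjusted p = 0.59 from limma). All 10 MuSC marker genes had a peak within 1000 bp of their start, with Pax7 the most accessible, and their values summed to 15756 ± 1416 in control cells and to 15885 ± 641 without Taf4a (SD, n = 3 each). Single markers moved apart within this sum. Pax7 had 4533, 3128 and 3729 in control and 3084, 2923 and 3026 in Taf4a sKO libraries, so each of the latter was lower. At Myod1, Calcr, Vcam1, Cdh15 and Fgfr4 each Taf4a sKO library was higher than each control library. Of 5 haematopoietic markers only Cd68 had such a peak (239 ± 59.3 against 130 ± 2.31, SD, n = 3 each), and Ptprc, Csf1r, Itgam and Spi1 had none. Of 5 endothelial markers Kdr and Tek had one, with summed values of 1372 ± 254 in control and 1763 ± 51.8 in Taf4a sKO libraries (SD, n = 3 each). Pecam1, Cdh5 and Emcn had none. Of 5 fibro-adipogenic markers 3 had one (1712 ± 116 against 1995 ± 81.9), most in Col15a1, and Pdgfra and Ly6a had none. Among these 3, Dcn rose from 89, 93 and 102 in control to 176, 177 and 156 in Taf4a sKO libraries. Cd34 went the other way, with 670, 646 and 787 against 593, 623 and 539. Of 5 myofibre markers 4 had one (5816 ± 741 against 6325 ± 461), most in Mylpf (SD, n = 3 throughout). The part of these differences in the results for lncRNA peaks was not tested. The 12 peaks on chromosome Y summed to 7513, 7032 and 6933 in control but to 3649, 3710 and 4755 in Taf4a sKO libraries. The study used males and females, and a difference in sex between the genotypes was not tested. Of the lncRNA peaks, 57 lie on chromosome X and 1 on chromosome Y. Leaving out both chromosomes changed the counts of higher and lower lncRNA peaks from 1787 to 1772 and from 788 to 782. This cannot show whether the sex of the animals affected peaks on the other chromosomes.

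LncRNA genes are transcribed like protein-coding genes but yield RNAs without a long open reading frame. Some act in cis on neighbouring genes, some host small RNAs, and at others the act of transcription or an enhancer inside the locus appears to matter more than the RNA. Their promoters are usually less CpG-rich and more tissue-restricted than those of protein-coding genes. Where an lncRNA is antisense to or shares a start region with a coding gene, an ATAC-seq peak cannot be assigned to one of them, since accessibility carries no strand.

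The deposited annotation had a property that decides which lncRNA loci are seen. Only 25 of the 5333 lncRNA peaks (0.469%) lay within 10000 bp of the start of a protein-coding gene in GENCODE vM21, and the median distance to the nearest such start was 52705 bp. Peaks near a coding start were thus almost never given to an lncRNA gene, and lncRNA genes that start beside a coding gene are largely absent here. A closer alternative start of a coding transcript (within 1000 bp) was present at 264 lncRNA peaks. Relative to their own lncRNA gene, 49.9% of the peaks lay upstream, 25.7% in an intron, 9.56% in an exon and 14.7% downstream of the gene, and 34.6% lay inside a protein-coding gene. The median length was 573 bp against 589 bp for all peaks and 871 bp for peaks of protein-coding genes. The median GC content of the central 300 bases was 50.3% in lncRNA peaks and 50.7% in all peaks.

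The central sequences of some of the strongest and most changed lncRNA peaks show how unlike each other these elements are. They are given on the forward strand of GRCm38 (mm10), in lower case, with matches to 4 short motifs in capitals. The motifs, searched on both strands, were CCAAT (the NF-Y box), GGGCGG (the Sp box), TGANTCA (the AP-1 site) and CAGCTG (an E-box of the type bound by myogenic factors). None contains another, although neighbouring matches can share bases. Of all 75412 windows of this length, 32.2% held CCAAT, 20.03% GGGCGG, 22.0% TGANTCA and 29.1% CAGCTG. A pair of strong peaks at lncRNA starts is shown first, because they look like CpG-rich promoters with several Sp boxes.
6720427I07Rik, chr13:48546018-48546317: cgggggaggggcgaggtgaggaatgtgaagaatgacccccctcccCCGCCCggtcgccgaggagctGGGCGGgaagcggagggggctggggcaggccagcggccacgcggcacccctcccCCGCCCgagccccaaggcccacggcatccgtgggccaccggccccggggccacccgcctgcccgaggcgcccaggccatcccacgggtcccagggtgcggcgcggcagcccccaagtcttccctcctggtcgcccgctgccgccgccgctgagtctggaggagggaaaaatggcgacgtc
Gm15287, chr13:111725370-111725669: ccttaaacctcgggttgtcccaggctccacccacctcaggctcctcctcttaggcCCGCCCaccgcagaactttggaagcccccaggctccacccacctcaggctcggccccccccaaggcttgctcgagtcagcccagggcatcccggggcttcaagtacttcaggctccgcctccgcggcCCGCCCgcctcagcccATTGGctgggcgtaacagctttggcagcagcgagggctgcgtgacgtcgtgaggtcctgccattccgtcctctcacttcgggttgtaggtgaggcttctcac
The next 3 windows come from peaks that were strongly higher in Taf4a sKO MuSCs. The first held no match, and the other two were chosen because each holds an AP-1 site.
Gm42620, chr5:103541204-103541503: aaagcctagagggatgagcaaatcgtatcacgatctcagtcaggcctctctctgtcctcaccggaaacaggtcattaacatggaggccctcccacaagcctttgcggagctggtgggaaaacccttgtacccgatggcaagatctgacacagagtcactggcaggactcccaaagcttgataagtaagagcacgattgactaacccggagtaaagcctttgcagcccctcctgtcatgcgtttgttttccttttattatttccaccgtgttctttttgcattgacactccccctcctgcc
Gm43066, chr3:103601087-103601386: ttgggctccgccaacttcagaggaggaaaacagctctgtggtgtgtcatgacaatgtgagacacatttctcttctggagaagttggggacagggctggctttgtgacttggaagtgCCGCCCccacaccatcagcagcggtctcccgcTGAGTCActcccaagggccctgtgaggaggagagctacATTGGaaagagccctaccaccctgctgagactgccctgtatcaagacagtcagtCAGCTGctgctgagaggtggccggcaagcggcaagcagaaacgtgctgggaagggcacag
Gm13174, chr4:153217601-153217900: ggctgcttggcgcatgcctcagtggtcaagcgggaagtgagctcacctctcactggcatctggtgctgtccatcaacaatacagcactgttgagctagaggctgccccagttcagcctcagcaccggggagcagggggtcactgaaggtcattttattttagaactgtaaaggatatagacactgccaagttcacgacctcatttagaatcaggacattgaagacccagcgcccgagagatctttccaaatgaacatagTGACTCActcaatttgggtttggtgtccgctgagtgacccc
Peaks that were strongly lower are shown by 4 windows. Gm16150, 5430402P08Rik and Gm12510 hold CCAAT, and Gm33086 holds an E-box beside an AP-1 site.
Gm16150, chr1:38233120-38233419: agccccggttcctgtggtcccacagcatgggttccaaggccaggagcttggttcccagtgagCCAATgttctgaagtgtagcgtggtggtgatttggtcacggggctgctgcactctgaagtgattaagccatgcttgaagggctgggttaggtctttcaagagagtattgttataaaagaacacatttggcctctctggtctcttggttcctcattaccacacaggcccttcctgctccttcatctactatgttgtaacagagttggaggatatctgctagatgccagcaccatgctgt
5430402P08Rik, chr7:111365212-111365511: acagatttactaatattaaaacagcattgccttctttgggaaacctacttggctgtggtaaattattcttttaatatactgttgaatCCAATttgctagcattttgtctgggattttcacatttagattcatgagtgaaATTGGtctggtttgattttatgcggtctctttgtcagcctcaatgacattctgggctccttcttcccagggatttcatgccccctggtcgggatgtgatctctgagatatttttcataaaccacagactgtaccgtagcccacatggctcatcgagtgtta
Gm12510, chr4:55457677-55457976: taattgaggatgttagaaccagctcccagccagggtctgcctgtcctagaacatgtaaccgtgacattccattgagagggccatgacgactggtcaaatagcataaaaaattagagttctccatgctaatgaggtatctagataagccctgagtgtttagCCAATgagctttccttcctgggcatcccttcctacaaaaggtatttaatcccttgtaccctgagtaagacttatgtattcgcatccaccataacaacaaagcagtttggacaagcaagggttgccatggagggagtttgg
Gm33086, chr17:7574473-7574772: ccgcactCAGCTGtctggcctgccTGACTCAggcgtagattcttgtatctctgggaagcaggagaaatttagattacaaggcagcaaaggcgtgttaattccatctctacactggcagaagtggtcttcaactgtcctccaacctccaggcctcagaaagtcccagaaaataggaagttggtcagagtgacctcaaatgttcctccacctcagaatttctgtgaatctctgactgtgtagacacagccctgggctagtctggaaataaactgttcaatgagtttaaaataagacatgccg
The last pair belongs to lncRNA genes of known function whose nearest peak was higher in Taf4a sKO MuSCs, and each holds an E-box.
Chaer1, chr5:77137793-77138092: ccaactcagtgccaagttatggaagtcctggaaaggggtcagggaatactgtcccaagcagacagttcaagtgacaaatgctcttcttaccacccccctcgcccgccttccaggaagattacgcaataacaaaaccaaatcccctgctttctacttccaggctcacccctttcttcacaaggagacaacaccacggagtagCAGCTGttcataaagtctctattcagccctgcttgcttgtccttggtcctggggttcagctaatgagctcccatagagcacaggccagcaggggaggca
Trp53cor1, chr17:29078652-29078951: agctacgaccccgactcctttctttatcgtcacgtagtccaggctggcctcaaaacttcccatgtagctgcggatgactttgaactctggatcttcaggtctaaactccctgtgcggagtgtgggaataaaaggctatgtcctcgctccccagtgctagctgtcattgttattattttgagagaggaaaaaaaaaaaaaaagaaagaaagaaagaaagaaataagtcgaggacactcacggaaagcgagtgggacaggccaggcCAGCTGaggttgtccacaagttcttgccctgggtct

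To ask whether lncRNA loci gained or lost accessibility, every peak with a mean value above 10 entered 1 limma fit on log2(value + 1), and p-values were adjusted by the Benjamini-Hochberg method over all 75384 such peaks. Of the 5333 lncRNA peaks 5332 passed this minimum. At an adjusted p under 0.05, accessibility rose in Taf4a sKO MuSCs at 1787 of them (33.5%) and fell at 788 (14.8%). Over all tested peaks the shares were 28% higher and 13.9% lower. The median log2 fold change of the lncRNA peaks was 0.17, against 0.11 for all peaks. By the fold rule of the study's methods, a log2 ratio of the means beyond 1, 468 lncRNA peaks (8.78%) were gained and 286 (5.36%) were lost, against 7.02% gained and 5.36% lost among all peaks. Gained peaks belonged to 400 lncRNA genes and lost peaks to 258, and 5 genes had both. These shares depend on how libraries are scaled, because the deposited values give all peaks a positive median. With median-of-ratios scaling the median of all peaks moved from 0.11 to -0.01, and 30.6% of lncRNA peaks were higher and 21.6% lower, beside 25.3% and 22.5% of all peaks. Of the called lncRNA peaks 69.4% were higher with the deposited scaling, 58.7% with median-of-ratios scaling, 55.1% with equal totals and 57.1% with quantile normalization. Over all called peaks these shares were 66.8%, 52.98%, 47.6% and 49.7%. Of the gained and lost lncRNA peaks 62.1% were gained with the deposited scaling, and 49.6%, 45.2% and 56.2% with the other scalings, whereas over all peaks past the same threshold 56.7%, 44.3%, 40.5% and 50.8% were gained.

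The share of a library's total value that falls in lncRNA peaks does not depend on a single scaling factor per library, although quantile normalization, which was not applied to it, could change it. It was 5.27%, 5.35% and 5.40% for control replicates, compared with 5.67%, 5.60% and 5.65% for those of Taf4a sKO. Each Taf4a sKO library lay above each control library, with means of 5.34% ± 0.063 and 5.64% ± 0.035 (SD, n = 3 each; p = 0.1 in a two-sided exact permutation test, and no smaller p is possible with 3 libraries per genotype). Peaks within 1000 bp of the lncRNA start held 1.70% ± 0.0012 and 1.78% ± 0.011 of the total (SD, n = 3 each), and those beyond 3000 bp 2.63% ± 0.049 and 2.79% ± 0.020 (SD, n = 3 each), again without overlap. Peaks without an annotated gene moved in the same direction, from 29.9% ± 0.50 to 31.7% ± 0.18 (SD, n = 3 each). Peaks within 1000 bp of a protein-coding start moved in the other, from 45.8% ± 0.61 to 43.5% ± 0.27 (SD, n = 3 each). Since the shares of a library sum to a whole, a rise in one class and a fall in another are not separate measurements.

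LncRNA peaks were also grouped by distance to the transcription start site (TSS). The 1209 peaks within 1000 bp of a TSS had a median value of 275, against 170 for the 1037 peaks between 1000 and 3000 bp and 168 for the 3087 peaks beyond 3000 bp. Their median lengths were 715, 528 and 535 bp, and per 1000 bp of peak the median values were 387, 331 and 322. Within 1000 bp, the loss of Taf4a went with higher values at 392 peaks (32.4%) and lower values at 132 (10.9%). Between 1000 and 3000 bp, 344 (33.2%) were higher and 145 (14%) lower. Beyond 3000 bp, 1051 (34.1%) were higher and 511 (16.6%) lower. The median log2 fold change was 0.17, 0.16 and 0.18 in the 3 classes, so that near and distant peaks were shifted by nearly the same amount, while the middle 50% of values widened from between -0.12 and 0.51 near the TSS to between -0.25 and 0.60 beyond 3000 bp. Gained and lost peaks made up 6.37% and 4.47% within 1000 bp and 9.53% and 5.77% beyond 3000 bp. Upstream and downstream of the TSS, 32.5% and 34.5% of the peaks were higher and 15.1% and 14.4% lower. The lowest share of higher peaks among the distance steps examined was in the 563 peaks within 250 bp of the TSS (29.1% higher, 10.1% lower).

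**Figure D1:**
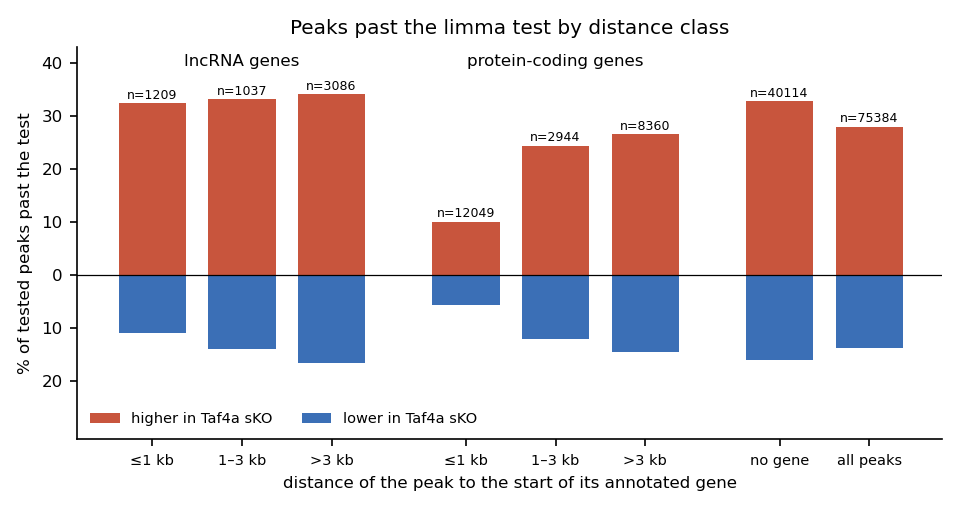
Percentage of tested peaks with an adjusted p under 0.05 in limma (y axis; above 0, higher in Taf4a sKO; below 0, lower), by distance to the start of the annotated gene (x axis), with the number of tested peaks above each bar. For lncRNA genes the share of higher peaks stayed between 32.4% and 34.1% in the 3 distance classes, while for protein-coding genes it was 10.03% within 1000 bp and 26.6% beyond 3000 bp.

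Peaks at protein-coding starts gave another picture. Of the 12049 tested peaks within 1000 bp of a coding TSS, 10.03% were higher and 5.67% lower, with a median log2 fold change of 0.06 and a median value of 1266. Beyond 3000 bp of a coding TSS, 26.6% were higher and 14.6% lower, and of the 40114 tested peaks with no annotated gene 32.9% were higher and 16% lower. LncRNA peaks near a TSS therefore had shares nearer to those of distant and unannotated peaks than to those of coding starts. The gap was also present when peaks were split by level, although the upper bin has no upper limit and does not match levels within it. Among peaks with a mean above 599, 42.4% of 363 lncRNA peaks and 9.95% of 8757 coding peaks within 1000 bp were called in either direction. Among those with a mean between 197 and 599, 46.3% of 348 and 28.9% of 1932 were called. These comparisons between classes were not tested, and they depend on scaling: with median-of-ratios scaling 48.4% of lncRNA and 33.1% of coding peaks within 1000 bp were called, and with quantile normalization 49.0% and 44.1%, against 43.3% and 15.7% with the deposited values. Leaving out control replicate 3 raised the share at coding starts to 33.4%, and the share at lncRNA starts to 53.1%. In sequence the classes differed as well. Of the lncRNA windows within 1000 bp, 21.1% held GGGCGG and the median GC content was 52.0%, whereas 64.0% of the coding windows held it and their median GC content was 66.0%. TGANTCA was found in 18.4% of the lncRNA and 4.51% of the coding windows within 1000 bp, and CAGCTG in 30.5% and 17.6%.

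Among subtypes, lincRNA peaks were higher in 34.9% and lower in 14.3% of cases, antisense peaks in 32.3% and 16.04%, processed_transcript peaks in 30.7% and 10.1%, and sense_intronic peaks in 30.0% and 19.4%. The remaining 4 subtypes held 16 tested peaks, too few to describe by shares. The median log2 fold change was 0.19 for lincRNA, 0.14 for antisense, 0.14 for processed_transcript and 0.14 for sense_intronic peaks.

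Motif content differed between gained and lost lncRNA peaks. CAGCTG was present in 46.9% of the 286 lost and 23.1% of the 468 gained lncRNA windows, and in 32.3% of the lncRNA windows that were neither. TGANTCA had the opposite order, with 33.8% of gained, 18.2% of lost and 23.3% of other windows. CCAAT was found in 33.3% of gained and 36.7% of lost windows, and GGGCGG in 8.76% and 9.79%. Gained and lost peaks of the whole table had like shares (TGANTCA 35.3% and 21.9%, CAGCTG 23.0% and 43.6%), so the order was not particular to lncRNA genes. No test was made of these shares, and a match does not show that a factor was bound.

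The strongest lncRNA peaks were ranked by mean value per 1000 bp, since peaks differ in length. The highest was an intronic peak of Gm33838 at chr9:35305219-35305591, with values of 2620, 2406 and 2549 in control and 1897, 3027 and 2033 in Taf4a sKO libraries. It is a special case, because 93.0% of its length is masked as repeat sequence, whereas the mean over lncRNA peaks was 10.8%. Its Taf4a sKO values lay on both sides of the control values, and the log2 fold change was -0.15 (SE 0.14, adjusted p = 0.42 from limma). It was -0.36, and called lower, without Taf4a sKO replicate 2, the highest library, and -0.02 without replicate 1. The next, 2827 bp upstream of the antisense gene Gm28960 at chr1:153091697-153092971, lies inside Nmnat2, a gene for an NAD-synthesizing enzyme, and had values of 5096, 4491 and 6174 in control and 6846, 5722 and 5925 in Taf4a sKO libraries. The genotypes overlapped there (log2 fold change 0.24, SE 0.11, adjusted p = 0.098 from limma).

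Of the 10 strongest peaks 6 lay within 1000 bp of their TSS, and 3 passed the test, all higher in Taf4a sKO, a share near the 28% of all tested peaks that were higher. The start of the lincRNA Gm14321 (chr2:167777041-167778288) had values of 3477, 3098 and 3971 in control and 5000, 4388 and 4397 in Taf4a sKO libraries, without overlap. Its mean rose from 3515 ± 438 to 4595 ± 351 (SD, n = 3 each; log2 fold change 0.39, SE 0.11, adjusted p = 0.0045 from limma). An exonic peak of A630001O12Rik (chr8:126849143-126850272), 10475 bp from its TSS, had a mean of 3319 ± 855 in control and 4270 ± 224 in Taf4a sKO MuSCs, with overlapping libraries (adjusted p = 0.034 from limma). This call was lost with each of the other 3 scalings, and without control replicate 2, Taf4a sKO replicate 1 or Taf4a sKO replicate 3. The start of AC115692.1 on chromosome 18 had 4785 ± 515 and 5724 ± 548 (SD, n = 3 each), at the edge of the threshold (adjusted p = 0.049 from limma), and the call was lost when control replicate 1 or 2 or any Taf4a sKO replicate was left out, with the replicate block, and with a minimum mean of 50. The other strong peaks, at Gm26887, 6720427I07Rik, Gm15287, AC166654.1 and Gm37982, had log2 fold changes between 0.05 and 0.24 and did not pass. Under other scalings, Gm37982 was called higher with median-of-ratios scaling and with quantile normalization, and Gm28960 with quantile normalization. Without control replicate 3, Gm37982, Gm28960 and 6720427I07Rik were called higher. At the other 5 genes the mean values were between 3204 and 6463.

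**Figure D2:**
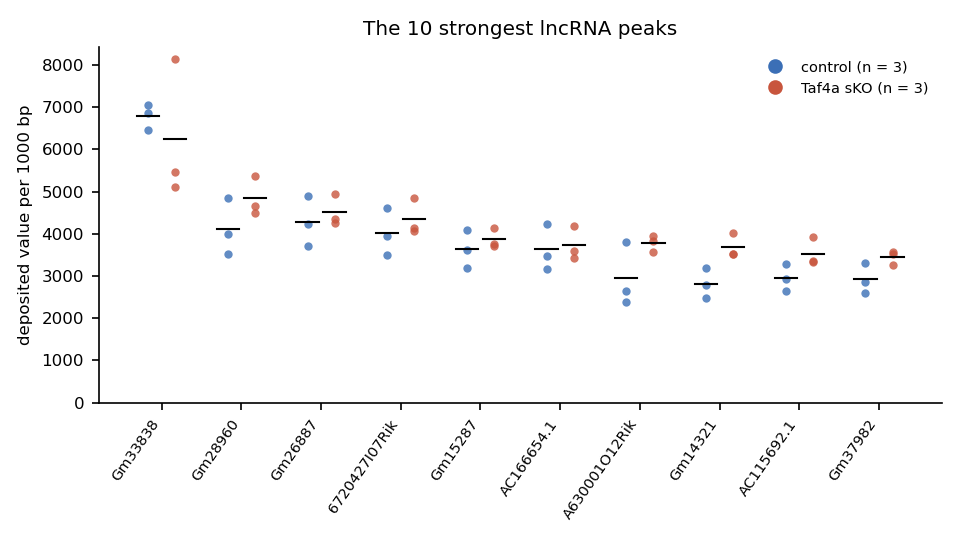
Deposited value per 1000 bp of peak length (y axis, starting at 0) in each library for the 10 strongest lncRNA peaks, with control libraries in blue, Taf4a sKO libraries in red and black bars for the means of 3 libraries. The genotypes overlap at most peaks and stand apart at Gm14321 and AC115692.1, where the lowest Taf4a sKO value lies above the highest control value.

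The most changed lncRNA loci were taken among peaks with a mean of at least 50, an adjusted p under 0.05, a log2 ratio beyond 1 and genotypes that did not overlap. These criteria were met by 391 lncRNA peaks (7.33%) with higher and 181 (3.39%) with lower values in Taf4a sKO MuSCs, against 5.68% and 3.19% of all tested peaks. The members named next were chosen for their change, so their values describe the extremes of the distribution. The 8 highest had log2 fold changes from 2.11 to 2.51, and the 8 lowest from -3.57 to -2.70. Of each 8, 2 lay within 1000 bp of the TSS, 4 beyond 3000 bp and 4 inside a protein-coding gene.

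On the deposited scale the largest rise among these peaks was at the antisense gene Gm42620, although 4930543E12Rik rose more with a pseudocount of 5 (2.34 against 2.27) and without control replicate 1, control replicate 2 or Taf4a sKO replicate 1. Its peak lies inside Ptpn13, which encodes a protein tyrosine phosphatase. The peak, 8333 bp upstream of the TSS at chr5:103541156-103541551, had values of 11, 20 and 22 in control and 115, 90 and 101 in Taf4a sKO libraries. An intronic peak of the lincRNA 4930543E12Rik rose from 42, 68 and 39 to 265, 275 and 254. At the antisense gene Gm28180 a peak inside Smg6 (chr11:74990702-74991107) had values of 42, 47 and 86 in control and 330, 258 and 254 in Taf4a sKO libraries. All 3 peaks were low in each control library and several times higher in each Taf4a sKO library.

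Higher up the scale, the start region of the sense_intronic gene Gm43066 (chr3:103600902-103601570), a peak inside Syt6, rose from 99, 104 and 172 to 526, 574 and 639, a log2 fold change of 2.25 (SE 0.18, adjusted p = 3.6e-08 from limma). The intronic peak of Faddos (chr7:144569308-144569915), an antisense gene beside the apoptosis adaptor gene Fadd, rose from 156, 194 and 196 to 888, 782 and 845. This was the most precisely measured of the 8 rises (log2 fold change 2.20, SE 0.14, adjusted p = 1.2e-10 from limma). The other 3 were weaker peaks. Gm13174 (chr4:153217528-153217973) had a mean of 20 ± 2.65 in control and 98.0 ± 33.2 in Taf4a sKO MuSCs, Gm44692 (chr7:68717479-68717882) 22.0 ± 1.00 and 98.3 ± 8.08, and Gm38948 (chr7:15980277-15980894), inside Bicra, 45 ± 10 and 198 ± 47.6 (SD, n = 3 each).

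The deepest fall was 2151 bp upstream of the antisense gene Gm16150, at a peak inside Aff3 (chr1:38233021-38233517). Its values were 119, 182 and 176 in control and 12, 11 and 14 in Taf4a sKO libraries, a log2 fold change of -3.57 (SE 0.25, adjusted p = 9.8e-10 from limma). Near the start of the lincRNA 5430402P08Rik (chr7:111365067-111365655) values fell from 136, 103 and 92 to 6, 15 and 17. The peak of the antisense gene AC132357.1, inside Kctd16 on chromosome 18, fell from a mean of 130 ± 28.8 to 15.0 ± 2.65 (SD, n = 3 each).

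Of the 8 falls, the one from the highest level was at an intronic peak of the lincRNA Gm12510 (chr4:55457227-55458426). It had values of 1382, 1722 and 1754 in control and 186, 186 and 255 in Taf4a sKO libraries, a log2 fold change of -2.96 (SE 0.14, adjusted p = 8.5e-12 from limma). The nearest coding gene, 73944 bp away, is Klf4, which encodes a zinc finger transcription factor. Its own start-site peak had a mean of 4437 ± 354 in control and 4275 ± 294 in Taf4a sKO MuSCs (SD, n = 3 each; log2 fold change -0.05, adjusted p = 0.70 from limma). A peak of Gm10441 at chr5:53518964-53519546 lies inside Rbpj, which encodes the DNA-binding factor of the Notch pathway that keeps MuSCs quiescent. It fell from 403, 391 and 514 to 42, 93 and 68, a log2 fold change of -2.73 (SE 0.23, adjusted p = 4.9e-07 from limma).

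The remaining falls were at Gm46447 (132 ± 53.4 to 19.3 ± 10.2), Gm33086 (259 ± 12.5 to 38.7 ± 5.13) and Gm44867 inside Plekha7 (223 ± 61.9 to 32.7 ± 2.52; SD, n = 3 each). CCAAT was present in 6 of the 8 windows with the deepest falls and in 3 of the 8 with the largest rises, against 32.2% of all windows. Over all lost lncRNA peaks the share was 36.7%, and over all gained ones 33.3%. All 16 peaks kept their direction and their call under each of the scalings, with a pseudocount of 5, with each library left out in turn, with the replicate block and with voom weights.

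**Figure D3:**
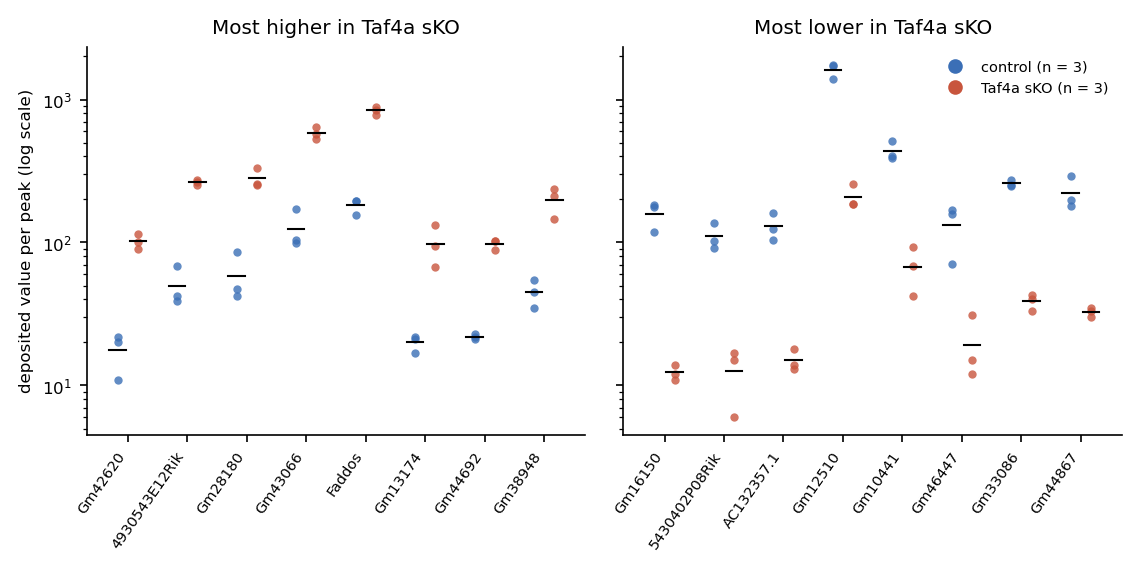
Deposited value per peak (y axis, log scale) in each library for the 8 lncRNA peaks with the largest rise (left) and the 8 with the deepest fall (right), with control libraries in blue, Taf4a sKO libraries in red and black bars for the means of 3 libraries. The genotypes do not overlap at any of the 16 peaks, which was a condition of their choice, and Gm12510 falls from the highest level, between 1382 and 1754 in control.

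Whether the coding genes beside these elements changed at their own starts was read from the peaks annotated to those genes, which the choice did not use. Of the 16 loci 12 had a nearest coding gene with a peak within 1000 bp of its start, and 1 of these was called. This was Syt6, which encodes a synaptotagmin, beside Gm43066, where values rose from 107, 91 and 122 to 165, 190 and 214 (log2 fold change 0.83, SE 0.17, adjusted p = 4.8e-04 from limma). At Ptpn13 the log2 fold change was 0.19 and did not pass (adjusted p = 0.16 from limma). For all gained lncRNA peaks, the nearest coding genes with such a peak numbered 275, and 62 of their start-site peaks (22.5%) were higher and 9 (3.27%) lower. For the lost lncRNA peaks there were 177, with 15 (8.47%) higher and 13 (7.34%) lower, and for the other lncRNA peaks 1503, with 13.7% higher and 4.19% lower. Over all coding starts the shares were 10.03% and 5.67%. Some genes stand in more than 1 of these sets, and the differences were not tested.

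Several lncRNA genes carry more than 1 peak, up to 8. Of the 1403 genes with at least 2 peaks, 180 had every peak higher, 56 had every peak lower, and 122 had both higher and lower peaks. In 695 genes, which include the 180, at least 1 peak was higher and none lower. In 253, which include the 56, at least 1 peak was lower and none higher, and in 333 none passed the test. More genes with higher than with lower peaks is also what the shares over all tested peaks give (28% higher and 13.9% lower), and multi-peak genes of other classes were not counted. Peaks of a gene share a locus and are not independent.

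Genes with at least 5 peaks numbered 73 and held 386 peaks, of which 176 were higher and 36 lower, where 28% of all tested peaks were higher and 13.9% lower. Of the 73 genes 43 had higher but no lower peaks, 8 had lower but no higher peaks, 18 had both and 4 had none past the test. All 5 peaks were higher at Srrm4os, Gm15907, Gm12681 and AC132455.3, and all 5 were lower at Gm31333. At Gm15907 on chromosome 13 the log2 fold changes lay between 0.73 and 2.06. All its peaks lie inside the protein-coding gene Lhfpl2 and cannot be assigned to one of the genes. The strongest of them (chr13:94134863-94135701) lies 542 bp from the start of an Lhfpl2 transcript. It had values of 321, 326 and 362 in control and 759, 756 and 845 in Taf4a sKO libraries (log2 fold change 1.22, SE 0.12, adjusted p = 8.3e-08 from limma). The most changed peak of Gm15907 (chr13:94132509-94132918) rose from 68, 59 and 71 to 248, 299 and 289. At Gm31333 on chromosome 12 the log2 fold changes lay between -1.57 and -0.61, and the peak at chr12:29140999-29141814 fell from 414, 418 and 495 to 179, 136 and 133. At Srrm4os, antisense to the gene of a neural splicing factor, the log2 fold changes lay between 0.39 and 1.79. Its peaks downstream of the TSS lie inside that coding gene, Srrm4. One of them (chr5:116446630-116446928, log2 fold change 1.33) is 65 bp from the start of an Srrm4 transcript. The log2 fold changes lay between 0.51 and 0.99 at Gm12681 and between 0.35 and 1.12 at AC132455.3.

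**Figure D4:**
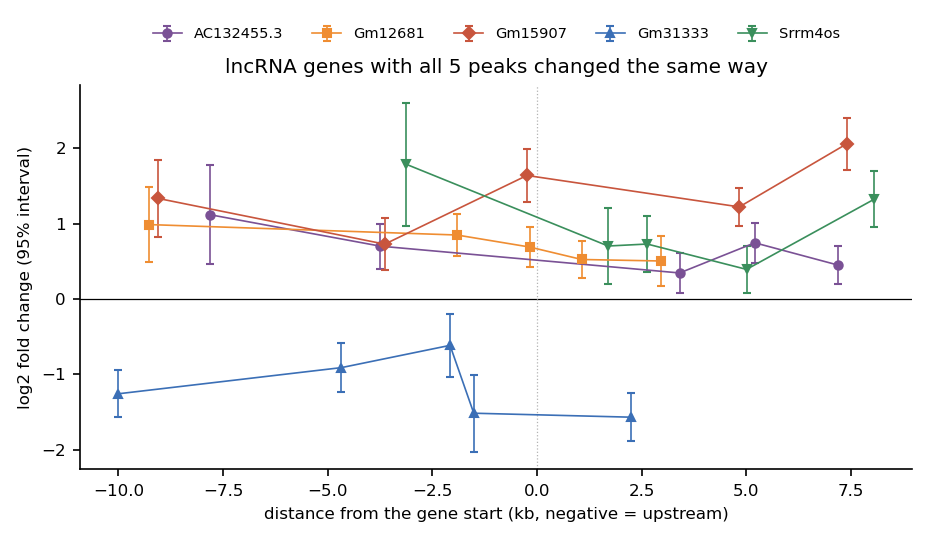
Log2 fold change of Taf4a sKO over control with its 95% interval from limma (y axis) for each of the 5 peaks of 5 lncRNA genes, against the distance from the gene start in kb (x axis, negative upstream). All peaks of Gm31333 lie below 0, between -1.57 and -0.61, and all peaks of the other 4 genes lie above 0.

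The other genes with many peaks were mostly mixed between called and uncalled peaks. Gm29483 had 5 of 6 peaks higher, and Gm11802, Gm14636, Gm15684, Gm15880, Gm17276, Gm20471, Gm20745, Gm28723, Gm28809 and Gm45083 had 4 of 5 higher and none lower. In 12 genes 3 of 5 peaks were higher and none lower (3930402G23Rik, AC134555.2, Arhgap20os, Gm11211, Gm11958, Gm13056, Gm13066, Gm29346, Gm36495, Gm37855, Gm42745 and Gm42921). Airn, D830013O20Rik, Gm15337 and Gm29458 had 3 of 6 higher, and 4930544F09Rik had 3 of 7 higher. AC151280.3, B230206L02Rik, Gm10432, Gm19522, Gm29540 and Lncppara had 2 of 5 higher, 2810442N19Rik and 4930425P05Rik 2 of 6, 4930405A21Rik and Gm13558 1 of 5 and Gm33838 1 of 6, again with none lower. Changes in both directions were found at Gm14319 (5 of 7 higher, 1 lower), Gm43378 (4 of 8 higher, 1 lower), Gm32296 (3 of 6 higher, 1 lower), and A430010J10Rik, Gm48912 and Gm5627 (3 of 5 higher, 1 lower). They were also found at 4930546K05Rik and Gm32914 (2 of 6 higher, 1 lower), at AC141471.1, Gm11465, Gm11840, Gm31651, Gm35520 and Gm38832 (2 of 5 higher, 1 lower) and at 1810059H22Rik, Gm10847, Gm16144 and Gm29123 (1 of 5 higher, 1 lower). Beside Gm31333, lower peaks without higher ones were found at 3300002A11Rik (3 of 6), AC122253.1 (3 of 5), Gm43691 (2 of 6), Gm48671 (2 of 5), Gm47767 (1 of 6), and Gm16146 and Platr6 (1 of 5). None passed at 9930038B18Rik, Gm32585, Gm34322 and Gm8883.

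Among lncRNA genes with a known role, 32 of 82 listed genes had at least 1 peak annotated to them, with 59 peaks in all. Of these peaks 15 were higher, 2 lower and 42 did not pass. These counts, and those of each list below, stand beside 28% higher and 13.9% lower over all tested peaks, and 33.5% and 14.8% over lncRNA peaks. Within 1000 bp of the TSS 5 of 25 peaks were higher and 0 lower, and at larger distances 10 of 34 were higher and 2 lower. The median log2 fold change of the 59 peaks was 0.15, against 0.17 for all lncRNA peaks. The lists, which share some genes, cover imprinted lncRNAs, X inactivation, nuclear bodies and chromatin, hosts of small RNAs, p53 and growth, muscle, and Hox antisense genes.

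In the muscle list, 7 of 17 genes had peaks, and 8 of 21 peaks were higher and 0 lower. Chaer1, a lncRNA known from cardiac hypertrophy, had 3 peaks, all downstream of the gene and all higher. The nearest, 2310 bp from its TSS (chr5:77137641-77138243), had values of 161, 173 and 169 in control and 493, 380 and 441 in Taf4a sKO libraries, without overlap. The log2 fold change was 1.37 (SE 0.14, adjusted p = 1.4e-07 from limma). The other 2, named after their values were seen, rose by 1.51 and 1.54 on the log2 scale. The nearest coding gene is Hopx, which encodes an atypical homeodomain protein of muscle and stem cells, and its start-site peak had values of 78, 113 and 102 in control and 133, 115 and 146 in Taf4a sKO libraries (log2 fold change 0.43, adjusted p = 0.065 from limma). Bvht, known for its role in commitment to the cardiac lineage, had a peak 290 bp from its TSS with values of 171, 150 and 169 in control and 247, 234 and 252 in Taf4a sKO libraries (log2 fold change 0.58, SE 0.15, adjusted p = 0.0030 from limma). The start-site peak of its nearest coding gene, Il17b, which encodes a cytokine, went the other way, from 272, 220 and 272 to 205, 153 and 163 (log2 fold change -0.55, SE 0.16, adjusted p = 0.0070 from limma). Dubr, which takes part in myoblast differentiation, had 1383 to 1663 in control and 1693 to 1737 in Taf4a sKO libraries at its start, and did not pass (adjusted p = 0.17 from limma), although it was called higher without control replicate 3 (log2 fold change 0.24). Nctc1, a muscle-expressed RNA counted in the imprinted list, was lower at its nearest peak.

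In the p53 and growth list, 5 of 12 genes had peaks, and 3 of 6 peaks were higher and 0 lower. Trp53cor1, a p53-induced lncRNA next to the cell cycle inhibitor gene Cdkn1a, had values of 882, 961 and 1200 in control and 1629, 1446 and 1507 in Taf4a sKO libraries at a peak 378 bp from its TSS (chr17:29078228-29079374). The genotypes stood apart, with a log2 fold change of 0.60 (SE 0.12, adjusted p = 2.3e-04 from limma). Lncpint, also induced by p53, rose from 915 ± 49.3 to 1154 ± 52.0 (SD, n = 3 each; log2 fold change 0.33, SE 0.11, adjusted p = 0.014 from limma). That call was lost with quantile normalization and without Taf4a sKO replicate 1. The nearest peak of Pvt1, the lncRNA beside Myc, did not pass (log2 fold change 0.26, adjusted p = 0.24 from limma), but a second one 9338 bp upstream, named after its values were seen, rose from 79, 73 and 84 to 126, 148 and 135 (log2 fold change 0.78, adjusted p = 0.0011 from limma).

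Of the imprinted lncRNAs 6 of 10 had peaks, with 3 of 18 higher and 2 lower. At Airn, the antisense RNA that silences Igf2r on the paternal allele, 3 of 6 peaks were higher, among them the one 943 bp upstream of the TSS (340, 315 and 466 in control, 497, 563 and 552 in Taf4a sKO libraries; adjusted p = 0.0041 from limma). The peak 297 bp downstream of the TSS had a log2 fold change of -0.18 and did not pass, whereas it was called lower with the other 3 scalings. The nearest peak of Nctc1, a transcript of the Igf2 and H19 domain, had values of 129, 119 and 103 in control and 82, 84 and 55 in Taf4a sKO libraries. It was lower by a log2 fold change of -0.68 (SE 0.20, adjusted p = 0.0089 from limma), but the call was lost without control replicate 2 or without Taf4a sKO replicate 3. Nespas, antisense in the Gnas cluster, was lower at a peak 4348 bp upstream (106, 110 and 134 against 71, 81 and 79; log2 fold change -0.59, adjusted p = 0.013 from limma). The start-site peaks of H19, Kcnq1ot1 and Peg13 had log2 fold changes of 0.34, 0.14 and 0.11 and did not pass, although H19 was called higher without control replicate 3 (0.45).

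Of the small RNA hosts 14 of 42 had peaks, and 4 of 22 peaks were higher and 0 lower. The host gene Mir99ahg rose at its start from 97, 80 and 68 to 142, 134 and 133 (log2 fold change 0.75, SE 0.18, adjusted p = 0.0022 from limma). Start-site peaks of the snoRNA hosts Snhg5, Snhg6 and Snhg8, of Epb41l4aos and of Dleu2 had log2 fold changes between 0.03 and 0.08, and did not pass. The nearest peak of Mir17hg, 1373 bp upstream, had values of 3327, 3136 and 3674 in control and 3346, 3397 and 3441 in Taf4a sKO libraries. These broad promoters were thus nearly equal between genotypes on the deposited scale, and some of them were called lower when all peaks were centred. The start of Dnm3os, a microRNA host, had a log2 fold change of -0.05 and did not pass. Of its upstream peaks, those at 1679 bp (log2 fold change 0.49, adjusted p = 0.0052 from limma) and 10101 bp (0.60, adjusted p = 2.9e-04 from limma), named after their values were seen, were higher. The nearest peaks of Mir155hg, Mir124a-1hg, Snhg17 and Snhg20 had log2 fold changes between -0.09 and 0.03 and that of Mir9-3hg one of 0.28, and none passed.

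In the list of nuclear and chromatin-associated RNAs 8 of 13 genes had peaks, and 5 of 18 were higher and 0 lower, all 5 at Airn and Bvht. The start of Malat1, an abundant RNA of nuclear speckles, had 2439 ± 308 in control and 2501 ± 101 in Taf4a sKO MuSCs (SD, n = 3 each; log2 fold change 0.04, adjusted p = 0.77 from limma). Firre had a log2 fold change of 0.13 and 2900097C17Rik one of 0.22 at their starts, without passing, and the distant peak of Fendrr had one of 0.12 and did not pass either. Xist, which coats the inactive X chromosome, had values of 138, 132 and 147 in control and 146, 119 and 137 in Taf4a sKO libraries at a peak 977 bp upstream (log2 fold change -0.06, adjusted p = 0.81 from limma). Tsix, its antisense partner, had a log2 fold change of -0.27 and did not pass. Of 12 Hox antisense genes only Hoxaas3 had a peak, with a log2 fold change of 0.01.

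**Figure D5:**
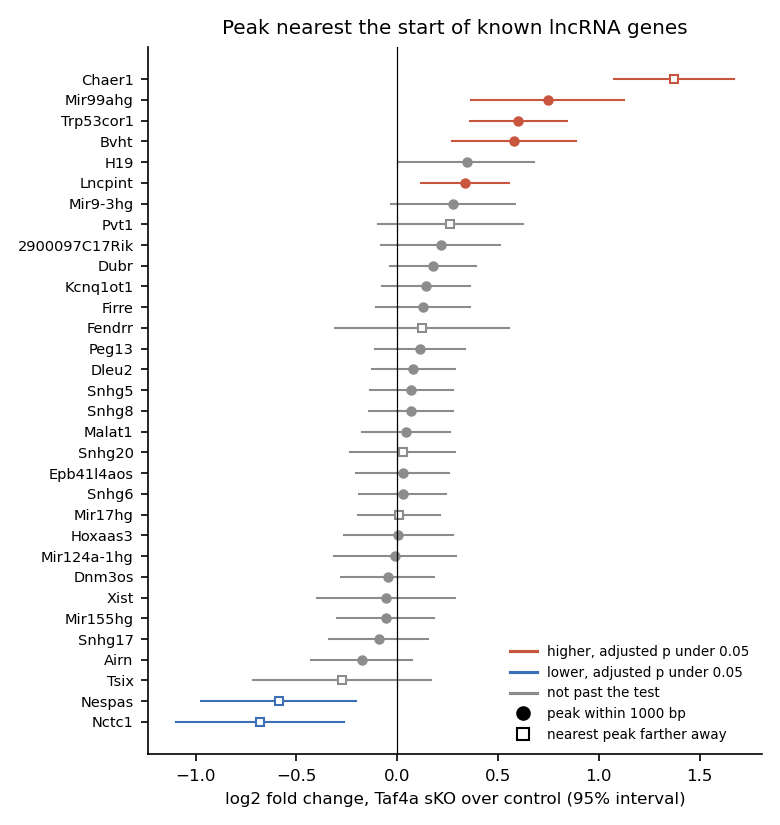
Log2 fold change of Taf4a sKO over control with its 95% interval from limma (x axis) for the peak nearest the start of each of the 32 listed lncRNA genes with a peak (y axis), as filled circles within 1000 bp of the start and open squares farther away. Of these nearest peaks 5 were higher (red), from Lncpint at 0.33 to Chaer1 at 1.37, and 2 lower (blue), Nespas at -0.59 and Nctc1 at -0.68.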

How the data were processed

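The study's methods and the submitters' notes name Trimmomatic 0.39, STAR 2.7.11b to mm10, Picard 3.1.1 and featureCounts. Peaks were called per sample, without an input control, and unified. A shift for the Tn5 insertion is not described. The deposited value is a score: read counts per peak that the authors normalized for depth and rounded. These are not raw counts, so limma 3.58.1, under R 4.3.3, was run with robust moderation and an intensity trend of the variance on log2(value + 1) for peaks with a mean above 10, and fold changes of low peaks are understated. A further DESeq classification by the authors used a fold rule, repeated here on group means. No per-sample column was left unused (0 columns).

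The members, lists and thresholds were chosen with earlier results of these data known. Named peaks were the 10 strongest per 1000 bp, the 8 most changed in each direction, all genes with 5 or more peaks, and the peaks at or nearest the starts of the listed genes. Peak annotation and distances are the deposited ones. The methods name an Ensembl release whose biotype names differ from the table's. Gene names, exons and coding starts came from GENCODE vM21, which held 99.9% of the lncRNA gene IDs, and sequences from the RefSeq GRCm38 assembly. The test was checked on simulated data. Nothing says that libraries came from separate animals beyond their description as biological replicates, and 3 against 3 limits the precision. Alternatives covered scaling, minimum, pseudocount, thresholds, distances, members, voom weights, a replicate block and each library left out. Of the chosen windows and marker genes, 1 each is not reported here.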

Additional observations from a re-analysis of the deposited data

How the results depend on the processing

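The lncRNA counts and shares stayed within 1.5 times their value under most alternatives. The median log2 fold change of lncRNA peaks (0.17) was 0.061 with median-of-ratios scaling, 0.026 with equal totals and 0.044 with quantile normalization, and lower peaks numbered 1241 with equal totals and 1197 with quantile normalization instead of 788. A single factor per library shifts the log2 fold changes of all peaks nearly alike. Of these scalings only quantile normalization could therefore change the distance of this median to that of all peaks. That distance was 0.069 with the deposited values and 0.068 with quantile normalization. With a minimum mean of 50, 183 peaks were lost. With a 1.5-fold threshold 1252 were gained and 631 lost, and with a log2 threshold of 1.5, 94 and 116. With 1 library left out, higher peaks numbered 1406 to 2274 and lower peaks 639 (without Taf4a sKO replicate 2) to 769 (without Taf4a sKO replicate 1), gained peaks 414 to 663 and lost peaks 254 to 325. The share called was then 35.0% to 53.1% within 1000 bp and 40.1% to 58.0% beyond 3000 bp, and the median 0.13 to 0.24. Among named peaks that were not called on the deposited scale, Gm37982 was called higher with median-of-ratios scaling (0.13) and quantile normalization (0.13) and Gm28960 with quantile normalization (0.15), whereas Mir17hg was called lower with median-of-ratios scaling (-0.10) and equal totals (-0.14), and Epb41l4aos (-0.18) and Snhg6 (-0.12) with quantile normalization. Snhg17, Airn, Dnm3os and Mir155hg, negative but uncalled at their starts, were called lower with equal totals and quantile normalization. Without control replicate 3, 6 uncalled named peaks were called higher, at Gm28960 (0.36), 6720427I07Rik (0.22), Gm37982 (0.34), 2900097C17Rik (0.34), Dubr (0.24) and H19 (0.45), and without Taf4a sKO replicate 2 Gm33838 was called lower (-0.36). The cause was not tested. As alternatives chosen after seeing the data, adding TEC genes gave 2297 higher and 987 lower peaks, leaving out chromosomes X and Y gave 1772 and 782, and leaving the highest peak out of the totals gave lncRNA shares of 5.35% and 5.65%. Same-numbered libraries did not deviate together (correlations of 0.11, -0.12 and -0.03), so the numbers were taken not to pair the samples. With the replicate block 1859 lncRNA peaks were higher and 823 lower, against 1787 and 788, and among the named peaks AC115692.1 lost its call.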
